A study of Mus musculus with 2 samples.

Results

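The insulin-like growth factor genes described here were 10 members of the 29809 genes found in either library: the ligands Igf1 and Igf2, the receptors Igf1r and Igf2r, and the binding proteins Igfbp2 to Igfbp7. They were taken by name from the count tables, and all 10 had counts in both libraries. The study compared the arcuate nucleus and median eminence, the base of the hypothalamus that governs feeding, growth and pituitary control, between adult CD-1 mice of 2 genotypes. The wild type library came from 7 pooled mice, and the library labelled Irx3/5dHet, with the genotype Irx3/5+/- and called the double heterozygote here, from 5 pooled mice. All animals were 7 to 8 weeks old, and no other allele or treatment was named. Live sorted cells were captured by Drop-seq, in which barcoded beads tag the 3' ends of transcripts and each captured molecule is counted once as a unique molecular identifier (UMI). Each genotype was thus 1 library, so no difference between genotypes has a replicate check and no test was made. All intervals are 95% intervals for counting error.

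Insulin-like growth factors are small secreted proteins that act through the Igf1r tyrosine kinase on growth, survival and metabolism. Igf2r carries no kinase and takes Igf2 up for breakdown. The binding proteins hold the ligands in fluids and matrix, prolonging or blocking their action. Igfbp7 binds the ligands only weakly and is grouped here by name, being best known from blood vessel walls.

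The libraries held 2390 wild type cells with 4250724 UMIs (median 1274 per cell) and 1480 double heterozygote cells with 2850978 UMIs (median 1156.5). Genes that mark the labelled tissue were present in both: Agrp had 354 wild type and 1373 double heterozygote UMIs, Pomc 1348 and 1767, and the tanycyte gene Rax 182 and 60. The genes named in the genotype were thinly read, Irx3 at 30 and 15 UMIs and Irx5 at 16 and 6. Vip, a gene of the neighbouring suprachiasmatic nucleus, had 1290 and 287 UMIs, and Foxb1 of the mammillary region had 157 and 38. These were totals from libraries of unequal depth. Whether the differences came from the neurons sampled, the level per cell or the genotype was not tested. The 2 libraries shared 3 cell barcodes. Cells were sorted into marker-defined classes by clustering without the 10 genes. Neuron-like cells numbered 823 and 708, fibroblast-like cells (Dcn, Lum, Col1a2) 155 and 123, mural-like cells of vessel walls 72 and 58, epithelial-like cells (Epcam, Krt18, Cyp2f2) 45 and 35, and endothelial-like cells 40 and 13. Pars tuberalis-like cells of the pituitary stalk (Cga, Tshb) numbered 90 and 43, and tanycyte-like cells, the ventral glia that line the third ventricle, 82 and 50. The tanycyte-like cells were 1 cluster, which its markers named as ventral (beta2) tanycytes. The others were oligodendrocyte-like (261 and 122), oligodendrocyte precursor-like (241 and 73), ependymal-like (136 and 70), microglia or macrophage-like (105 and 45), cycling-like (11 and 6) and astrocyte-like cells (4 and 4), and a cluster of 325 and 130 cells with markers of astrocytes, ependymal cells and tanycytes alike. Members were ranked over the 12 classes for which both libraries had 10 cells or more. A pair of values gives wild type first, and a level is in CPM, the UMIs of a gene scaled to a fixed total of the UMIs of that class and library, the usual counts-per-million scaling.

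Fibroblast-like cells held more UMIs than any other class of both ligands and of Igfbp2, Igfbp4, Igfbp6 and Igfbp7, in each library. They made up 6.48% and 8.31% of the cells but gave 31.5% and 39.9% of all UMIs of the 10 genes. The class with the highest level was the same in both libraries for 6 of the 10 members, against 39.2% of 15096 genes tested the same way. For 4 of those 6, Igf1, Igf2, Igfbp4 and Igfbp6, it was the fibroblast-like class, which led in both libraries for 1.99% of all genes. Igfbp3 was led by endothelial-like cells (all genes, 3.19%) and Igfbp5 by epithelial-like cells (all genes, 2.4%). Igf1r, Igf2r, Igfbp2 and Igfbp7 had different leading classes in the 2 libraries. For Igfbp2 and Igfbp7 this depended on 1 cell each. That cell held 31 of the 49 wild type epithelial-like Igfbp2 UMIs, or 45 of the 86 double heterozygote endothelial-like Igfbp7 UMIs.

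**Figure D1:**
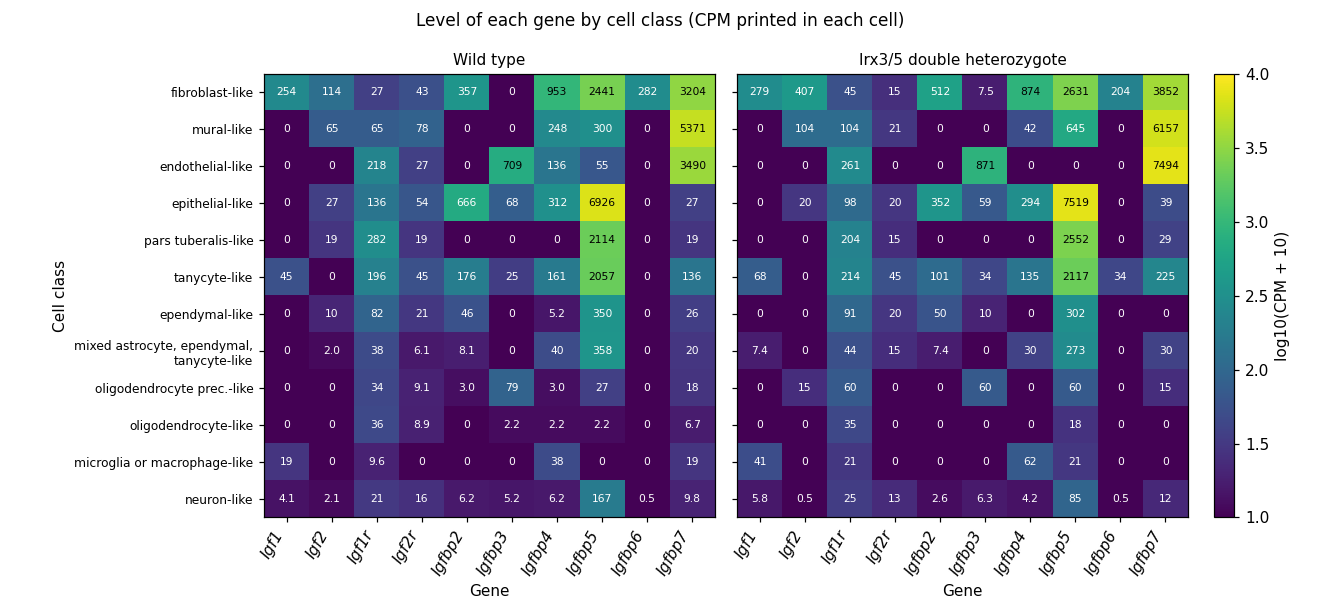
Level of each gene (columns) in each cell class (rows) of the wild type and double heterozygote libraries, in CPM, printed in each square and coloured by log10(CPM + 10). The ligands are brightest in the fibroblast-like row, Igfbp3 in the endothelial-like row and Igfbp5 in the epithelial-like row, and Igf1r has no single bright row.

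Both ligands came mostly from fibroblast-like cells. Igf1 (chr10:87858265-87937042, plus strand, GRCm38), the ligand induced by growth hormone, had a fibroblast-like level of 254 CPM (187 to 338; 47 UMIs in 31 cells) and 279 CPM (196 to 384; 37 UMIs in 23 cells). The UMIs were spread thinly, with at most 3 and 5 in a cell. The fibroblast-like class supplied 71.2% and 64.9% of the library's Igf1 UMIs. Tanycyte-like cells came next, at 45.2 and 67.6 CPM, which the fibroblast-like level exceeded 5.63-fold (2.73 to 13.1) and 4.13-fold (1.73 to 12). Free fibroblast RNA in the same proportion as the fibroblast markers found in those cells would give 0.535 and 0.13 Igf1 UMIs, against the 9 and 6 counted. The mixed astrocyte, ependymal and tanycyte-like cluster had 0 and 1 Igf1 UMIs in 325 and 130 cells.

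Igf1 had few UMIs in the immune cells of this tissue. Microglia-like cells, the resident macrophages of the brain, had 0 UMIs in 96 wild type and 24 double heterozygote cells, which allows up to 33.0 and 152 CPM. Border macrophage-like cells, the macrophages of vessel and meningeal borders, had 2 UMIs in 9 cells and 2 UMIs in 21 cells. This was 153 CPM (18.6 to 554) and 69.2 CPM (8.38 to 250). The wild type interval held the fibroblast-like level of 254 CPM. The double heterozygote one overlapped the fibroblast-like interval (196 to 384 CPM). Neuron-like cells had 8 and 11 Igf1 UMIs, or 4.14 and 5.76 CPM, in 823 and 708 cells.

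Igf2 (chr7:142650766-142666816, minus strand), the imprinted ligand best known from fetal growth and from meninges and choroid plexus, had the largest ratio between the libraries of the 10 over all cells. Its fibroblast-like level was 114 CPM (70.4 to 174) and 407 CPM (306 to 531), a 3.58-fold difference (2.13 to 6.24). The intervals of the 2 libraries did not overlap. The number of cells with a UMI hardly differed, at 9 of 155 and 10 of 123, and the UMIs were concentrated in few of them. In wild type the 4 richest cells held 7, 3, 3 and 3 Igf2 UMIs, and in the double heterozygote 19, 13, 8 and 5. Without the richest cell of each library the double heterozygote level was 266 CPM, with a log2 ratio of 1.81 against 1.84 with it. That cell held a like share of the UMIs in each library, 33.3% and 35.2%, so its removal says little about the ratio.

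Fibroblast-like cells split into 2 subclusters, and the Igf2 difference was read in one of them. In the subcluster led by Ptn and Enpp2 the level was 164 and 799.6 CPM (12 UMIs in 68 cells and 49 UMIs in 61 cells), a ratio of 4.88 (2.56 to 10.1). In the other, led by the early response gene Nr4a1 and by Hsd11b1, it was 80.7 and 70.0 CPM, a ratio of 0.868 (0.229 to 2.88). Mural-like cells followed at 65.2 and 104 CPM, on 5 UMIs in each library. In wild type the fibroblast-like level exceeded the mural-like one by an interval that included 1 (1.74-fold, 0.64 to 5.92), and in the double heterozygote by 3.91-fold (1.58 to 12.5). The fibroblast-like share of Igf2 UMIs was 55.3% and 87.1%.

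**Figure D2:**
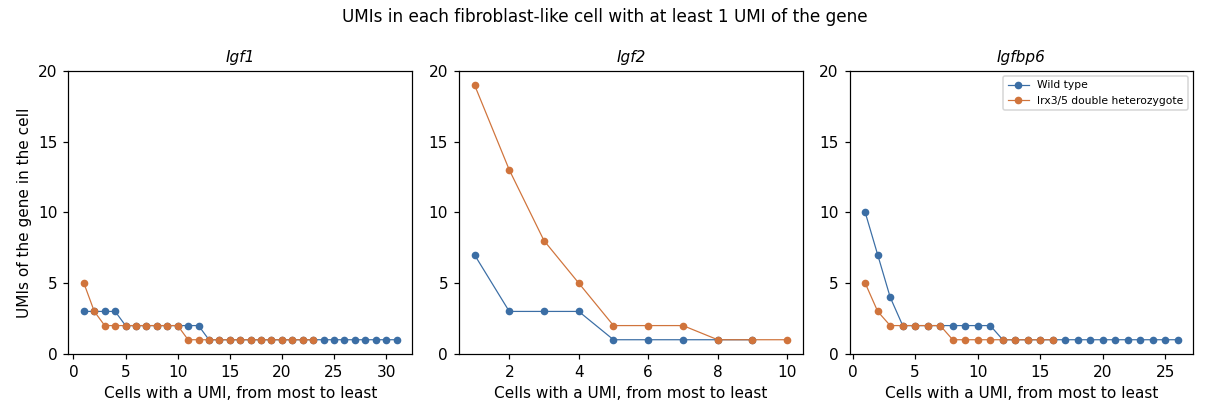
UMIs of Igf1, Igf2 and Igfbp6 (vertical axis) in each fibroblast-like cell with at least 1 UMI of the gene, ordered from most to least, for wild type (blue) and double heterozygote (orange). Igf2 rests on a steep curve that starts at 7 and 19 UMIs, and Igf1 on a flat one that starts at 3 and 5.

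The receptors had no single source. Igf1r (chr7:67952827-68233668, plus strand), the kinase receptor for both ligands, was highest in pars tuberalis-like cells at 282 CPM (205 to 378) in wild type, where 31 of 90 cells had a UMI. The double heterozygote value there was 204 CPM (112 to 342; 12 of 43 cells). Tanycyte-like cells were at 196 and 214 CPM, with a UMI in 30.5% and 30% of cells. Endothelial-like cells were at 218 and 261 CPM, on 8 and 3 UMIs. These 3 classes held overlapping intervals in each library, so their order is not resolved: the first class exceeded the next by 1.29-fold (0.602 to 3.18) and 1.22-fold (0.232 to 4.15).

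Igf1r had UMIs in all 12 ranked classes of both libraries. Neuron-like cells were at 21.2 and 25.2 CPM, with a UMI in 4.62% and 5.79% of cells, and oligodendrocyte-like cells at 35.7 and 35.0 CPM. The mixed astrocyte, ependymal and tanycyte-like cluster was at 38.4 and 44.3 CPM, below the tanycyte-like class. Through their number the neuron-like cells still held 19.1% and 37.2% of Igf1r UMIs. Fibroblast-like cells, which held most ligand UMIs, were at 27.1 and 45.2 CPM, on 5 and 6 UMIs.

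Igf2r (chr17:12682406-12769664, minus strand), the receptor that clears Igf2, was too thinly read to rank, with 76 and 38 UMIs in all cells. Mural-like cells led in wild type at 78.2 CPM on 6 UMIs, and tanycyte-like cells in the double heterozygote at 45.0 CPM on 4 UMIs. Neuron-like cells held 40.8% and 65.8% of its UMIs at 16.1 and 13.1 CPM. Its antisense partner Airn, which overlaps it, had 11 and 16 UMIs. No source used here says whether counting used the strand, and without it overlapping transcripts cannot be told apart.

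The binding proteins were highest in fibroblast-like, epithelial-like, endothelial-like or mural-like cells, depending on the gene. Igfbp6 (chr15:102144362-102149511, plus strand), which prefers Igf2, was read almost wholly in fibroblast-like cells: 52 of its 53 wild type UMIs and 27 of its 31 double heterozygote UMIs were there, at 282 CPM (210 to 369) and 204 CPM (134 to 296). Of these cells 16.8% and 13% had a UMI. Mural-like and epithelial-like cells had none in either library, and none of the 261 and 122 oligodendrocyte-like cells had one, which allows a share of cells with a UMI of up to 1.15% and 2.46% and sets no limit on the cells that express the gene. The rest were 1 UMI in neuron-like cells of each library and 3 UMIs in a single double heterozygote tanycyte-like cell.

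Igfbp4 (chr11:99041244-99054392, plus strand), an inhibitory binding protein cut by pappalysins, was led by fibroblast-like cells at 953 CPM (817 to 1104) and 874 CPM (722 to 1049). Epithelial-like cells came next at 312 and 294 CPM, 3.05-fold (1.97 to 4.94) and 2.98-fold (1.73 to 5.49) below. Tanycyte-like cells were at 161 and 135 CPM. Mural-like cells differed between the libraries: the 19 and 2 UMIs gave 248 and 41.6 CPM, a ratio of 0.168 (0.019 to 0.696). Free fibroblast RNA would give 4.8 and 3.25 of these UMIs if every fibroblast marker UMI in mural-like cells were free RNA. That was not tested, and the pericyte-like part of the class has Dcn and Col3a1 among its leading genes.

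Igfbp2 (chr1:72824503-72852474, plus strand), a binding protein abundant in brain fluids, was read in epithelial-like, fibroblast-like and tanycyte-like cells. Epithelial-like cells were at 666 and 352 CPM, but 31 of the 49 wild type UMIs came from 1 cell, and without that cell the wild type level was 261 CPM. Fibroblast-like cells were at 357 CPM (276 to 454) and 512 CPM (398 to 650), with a UMI in 27.7% and 29.3% of cells. The double heterozygote level was 1.44-fold (1.007 to 2.04) the wild type one. Tanycyte-like cells were at 176 and 101 CPM, and 12 of the 35 wild type UMIs were in 1 cell. In the mixed astrocyte, ependymal and tanycyte-like cluster Igfbp2 was at 8.09 and 7.38 CPM, on 4 and 1 UMIs.

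Igfbp5 (chr1:72857932-72874884, minus strand), a matrix-bound binding protein, was at high levels in 4 classes. It lies tail to tail with Igfbp2, with 5457 bases between their 3' ends. Epithelial-like cells led both genes in wild type, but for Igfbp2 1 cell held 31 of the 49 UMIs. Without that cell the epithelial-like level of Igfbp2 was below the fibroblast-like one. The fibroblast-like lead for Igfbp2 in the other library had an interval that included 1 (1.45-fold, 0.855 to 2.6). Epithelial-like cells led at 6926 CPM (6338 to 7554) and 7519 CPM (6786 to 8310), with a UMI in 43 of 45 and 31 of 35 cells. This was 2.84-fold (2.5 to 3.23) and 2.86-fold (2.47 to 3.31) the fibroblast-like level of 2441 and 2631 CPM. Pars tuberalis-like cells followed at 2114 and 2552 CPM and tanycyte-like cells at 2057 and 2117 CPM. The intervals of these last 3 classes overlapped in each library. Ependymal-like cells, the ciliated lining of the ventricle, were at 350.2 and 302 CPM, and oligodendrocyte-like cells at 2.23 and 17.5 CPM. The mixed astrocyte, ependymal and tanycyte-like cluster was at 358 and 273 CPM.

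Igfbp3 (chr11:7206086-7213923, minus strand), the main carrier of the ligands in blood, was led by endothelial-like cells at 709 CPM (463 to 1039) and 871 CPM (418 to 1603). This rested on 26 UMIs in 6 of 40 cells and 10 UMIs in 3 of 13 cells, so the UMIs came from a minority of the cells. The next class was the oligodendrocyte precursor-like one, at 79.2 CPM (26 UMIs in 20 cells) and 59.8 CPM (4 UMIs), 8.95-fold (4.99 to 16) and 14.6-fold (4.2 to 63.6) below. By supply, endothelial-like and oligodendrocyte precursor-like cells gave 26 each of the 75 wild type UMIs. Neuron-like cells had 10 and 12 UMIs, at 5.18 and 6.29 CPM. Through their number they were the largest supplier in the double heterozygote, with 35.3% of its Igfbp3 UMIs. The fibroblast-like class had 0 and 1 Igfbp3 UMIs.

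Igfbp7 (chr5:77349240-77408041, minus strand), the vessel wall protein, was high in mural-like cells at 5371 CPM (4865 to 5915) and 6157 CPM (5476 to 6900). Endothelial-like cells were at 3490 CPM (2912 to 4150) and 7494 CPM (5994 to 9255). The double heterozygote value came from 86 UMIs in 13 cells, too few cells for a ratio, and 45 of the UMIs were in 1 cell, without which it was 5216 CPM. Fibroblast-like cells were at 3204 CPM (2951 to 3473) and 3852 CPM (3525 to 4200), a ratio of 1.2 (1.07 to 1.36). They supplied 48.9% and 54.0% of its UMIs and mural-like cells 34.0% and 31.3%. Neuron-like cells had 19 and 23 Igfbp7 UMIs. Free RNA at the marker ratios would give 8.67 and 8.39 from fibroblast-like and 12.6 and 10.7 from mural-like cells. This takes every marker UMI outside its class as free RNA, which was not tested. In ependymal-like cells it would give 13.3 and 4.68 from fibroblast-like cells, where 5 and 0 were counted. The 3' end of Igfbp7 overlaps Polr2b on the other strand. Polr2b itself had 3 and 0 UMIs in mural-like cells, against 412 and 296 of Igfbp7, and 6 and 6 in fibroblast-like cells, against 592 and 511.

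**Figure D3:**
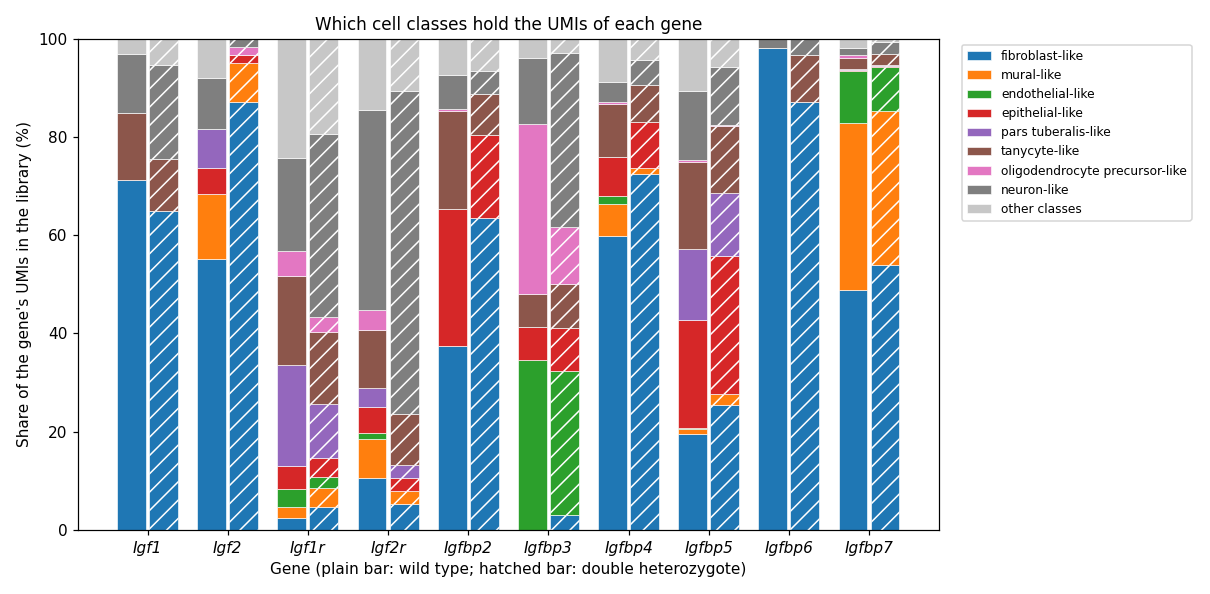
Share of each gene's UMIs held by each cell class (stacked bars, percent of the gene's UMIs in the library), plain for wild type and hatched for the double heterozygote. Fibroblast-like cells (blue) hold 98.1% and 87.1% of Igfbp6 and at least 55.3% of both ligands, and little of Igf1r or Igf2r.

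The bases before the start sites of 5 binding proteins are shown because they are the sequence next to each gene's start: the 4 led by the same class in both libraries, and Igfbp7, which was high in 3 classes. They are the 60 bases upstream of the RefSeq start (GRCm38.p6), 5′ to 3′ on the gene's strand, with capitals for the TATA box core TATAAA, the GC box core GGGCGG or the CCAAT box CCAAT, searched on both strands. In the same window 3.92% of 32851 RefSeq starts hold the first, 18.6% the second and 10.8% the third.
Igfbp3 (chr11:7213924-7213983, endothelial-led): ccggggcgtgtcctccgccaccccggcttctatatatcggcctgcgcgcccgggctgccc
Igfbp4 (chr11:99041184-99041243, fibroblast-led): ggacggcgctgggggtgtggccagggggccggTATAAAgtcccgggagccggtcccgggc
Igfbp5 (chr1:72874866-72874925, epithelial-led): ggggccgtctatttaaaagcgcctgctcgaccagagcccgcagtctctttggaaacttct
Igfbp6 (chr15:102144126-102144185, fibroblast-led): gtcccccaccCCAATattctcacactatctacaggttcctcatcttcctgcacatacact
Igfbp7 (chr5:77408046-77408105, vessel- and fibroblast-high): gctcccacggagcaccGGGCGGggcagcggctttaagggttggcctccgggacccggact
The 2 fibroblast-led genes differed in this window: Igfbp4 had a TATA box core 28 bases before its start and a GC content of 76.7%, and Igfbp6 a CCAAT box 50 bases before and a GC content of 48.3%. Igfbp7 had a GC box core 44 bases before its start, and none of the 3 exact letter strings was in the Igfbp3 or Igfbp5 window. Variants of the motifs were not searched, so their absence is not shown. A match is a description of letters and not a measured site.

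Single fibroblast-like cells carried several of the genes at once. Cells were thinned to 500 UMIs to set classes at a common depth, leaving out 10 shallower fibroblast-like cells in each library. A fibroblast-like cell then had a mean of 2.03 and 1.86 of the 10 genes, and 31.0% and 23.9% of these cells had at least 3. Among the other classes large enough for a ratio (40 or more cells per library) the mean was highest in mural-like cells, at 1.14 and 1.23. In smaller classes it was 1.0 and 1.5 in endothelial-like cells (31 and 10 thinned cells), and 1.105 and 1.129 in epithelial-like cells. At this depth 4 members were found in over 10% of fibroblast-like cells of both libraries. Igfbp7 was in 69.7% and 69.0% (84.5% and 82.9% unthinned), Igfbp5 in 53.8% and 48.7% (65.2% and 60.2%), Igfbp4 in 39.3% and 31.9% (56.8% and 49.6%), and Igfbp2 in 13.1% and 17.7% (27.7% and 29.3%). Igf1 and Igfbp6 were each in 11.03% of wild type cells, and in 4.42% and 5.31% of double heterozygote cells, with overlapping intervals. In thinned oligodendrocyte-like cells, whose unthinned median depth was 1301 and 1136 UMIs against 1051 and 944 in fibroblast-like cells, Igfbp7 was in 0.412% of wild type cells and in none of 111 double heterozygote cells, which allows a share of cells with a UMI of up to 2.70%.

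The genes most like several members across 12 classes of 2 libraries are given as a description; the 24 points share libraries and depth. Over 10163 genes compared, the Pearson correlation of log levels was highest for Igf1 with the matrix gene Tgfbi (0.908), for Igf2 with the collagen gene Col3a1 (0.907) and for Igfbp7 with the endothelial gene Rhoj (0.932). Igfbp3 was nearest to Bsg (0.855), with the tight junction gene Cldn5 among its 3 nearest (0.809), and Igfbp5 to the phosphatase gene Ptpn13 (0.838). Pairs of members were compared without a minimum of UMIs. Igf1 and Igfbp6 were most alike (0.872), but Igfbp6 had only 53 and 31 UMIs, below the minimum of 100 used above. Among pairs without Igfbp6 the highest value was for Igfbp2 and Igfbp5 (0.726). Igf1 and Igf1r were not alike (-0.214).

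Between the libraries, most members differed little when all cells were summed. Of the 10, 1 was past 2-fold, against 17.6% of 18949 genes tested, with 4.21% higher and 13.4% lower. This was Igf2, at 8.94 and 21.8 CPM, a ratio of 2.43 (1.6 to 3.75). Igfbp7 (284.9 and 332 CPM) had a ratio of 1.17 (1.07 to 1.27), Igfbp5 (542 and 480.5 CPM) of 0.887 (0.829 to 0.949) and Igfbp4 (69.2 and 56.1 CPM) of 0.811 (0.665 to 0.987). The other 6 had intervals that included 1. The median log2 ratio was -0.17 over the members and -0.09 over all genes tested. These sums mix classes whose shares differed between the libraries, so fewer cells of a class and less RNA per cell cannot be told apart in them. The direction also turned with the weighting of cells: summed UMIs put 3 of the 10 members higher in the double heterozygote, and the mean over cells put 7 higher, Igfbp5 among them.

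Within classes, 42 pairs of a gene and a class had enough UMIs for a ratio, and 6 of them were past 2-fold. Fibroblast-like cells held 2 of 9 (all genes, 24.5%), mural-like cells 2 of 5 (all genes, 25%), neuron-like cells 1 of 8 (all genes, 16.1%) and oligodendrocyte precursor-like cells 1 of 3 (all genes, 28.9%). The 7 tanycyte-like pairs (all genes, 26.6%), 4 mixed astrocyte, ependymal and tanycyte-like pairs (26.5%), 3 ependymal-like pairs (22.7%), 2 pars tuberalis-like pairs (26.3%) and 1 oligodendrocyte-like pair (22.4%) held none. Igf2 in fibroblast-like cells and Igfbp4 and Igfbp5 in mural-like cells had intervals that left out 1. Igf2r in fibroblast-like cells (8 and 2 UMIs), Igfbp2 in neuron-like cells (12 and 5 UMIs) and Igfbp5 in oligodendrocyte precursor-like cells (9 and 4 UMIs) had intervals that included it. In mural-like cells Igfbp5 was at 299.8 CPM (190 to 450) and 645 CPM (438 to 915), a ratio of 2.15 (1.21 to 3.86), on 23 and 31 UMIs. Free fibroblast RNA would give 12.3 and 9.77 of these UMIs at the ratio of the fibroblast markers. Within both parts of the class the interval included 1: the ratio was 2.51 (0.84 to 9) in the pericyte-like cells, whose leading genes include Dcn and Col3a1 and which numbered 12 of 72 and 15 of 58, and 1.8 (0.882 to 3.66) in the smooth muscle-like cells.

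**Figure D4:**
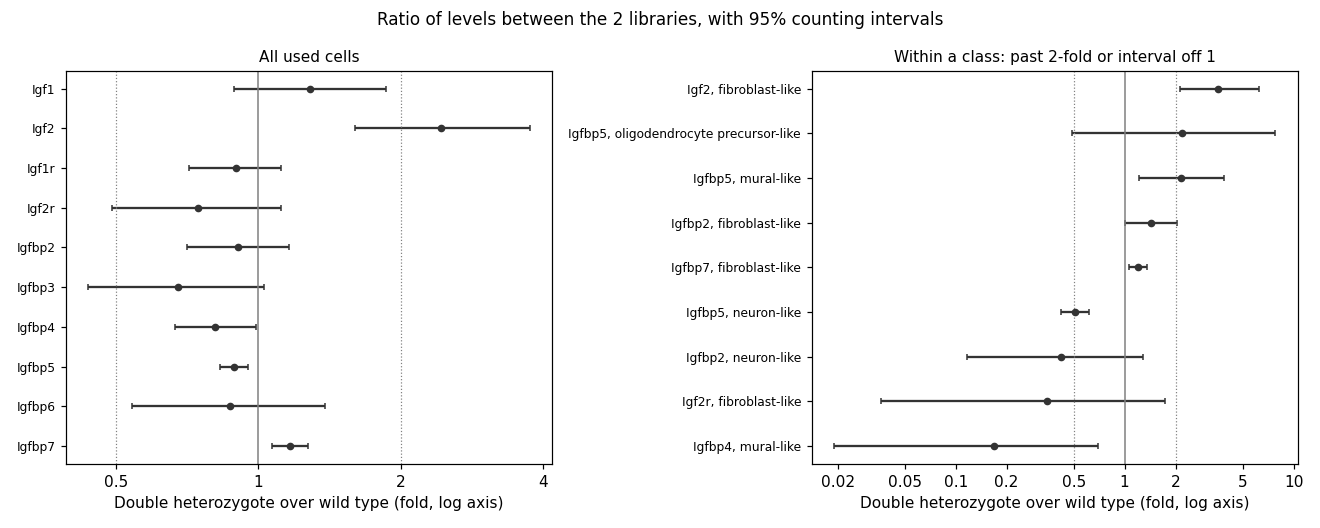
Ratio of the double heterozygote level to the wild type level (log axis, points with 95% counting intervals; dotted lines at 2-fold either way) for the 10 genes in all cells (left) and for the class values past 2-fold or with an interval off 1 (right). Igf2 stands past 2-fold in both panels, and Igfbp5 lies above 1 in mural-like and below 1 in neuron-like cells.

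Igfbp5 was lower in the neurons of the double heterozygote library. Neuron-like cells had 322 Igfbp5 UMIs at 167 CPM (149 to 186) in wild type, against 162 UMIs at 84.9 CPM (72.3 to 99.0) in the other library, a ratio of 0.509 (0.419 to 0.617). The share of these cells with a UMI was 22.8% and 13.7%, at median depths of 1570 and 1770 UMIs. The highest level was in suprachiasmatic neuron-like cells (Vip, Avp, Prok2), at 576 CPM (488 to 676) and 412 CPM (306 to 543). That cluster was 16.3% and 9.75% of the neuron-like cells. Without it the neuron ratio was 0.612 (0.478 to 0.781), and within it 0.714 (0.508 to 0.99).

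The Igfbp5 ratio varied between neuron clusters, and whether the clusters differ was not tested. Only the Agrp neuron-like interval lay apart from that of cluster 0. Cluster 0, led by Cartpt, Gal, Oxt, Sst and Pomc and the deepest of the large clusters, had 80 and 86 Igfbp5 UMIs at 82.3 and 75.8 CPM, a ratio of 0.92 (0.671 to 1.26). The shallower clusters 3 and 6 had ratios of 0.479 (0.226 to 0.949) and 0.378 (0.139 to 0.894). Mammillary neuron-like cells had 23 and 4 UMIs, a ratio of 0.361 (0.091 to 1.056). Agrp neuron-like cells had 8 UMIs in 14 cells and 3 UMIs in 43 cells, a ratio of 0.158 (0.027 to 0.656). Kiss1 neuron-like cells had no Igfbp5 UMI in either library, and the 16 and 23 cells allow a share of cells with a UMI of up to 18.8% and 13%. Cluster 0 was 27.9% and 40.5% of neuron-like cells, and the part of these shares in the pooled ratio was not tested beyond the value without the suprachiasmatic neuron-like cluster.

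**Figure D5:**
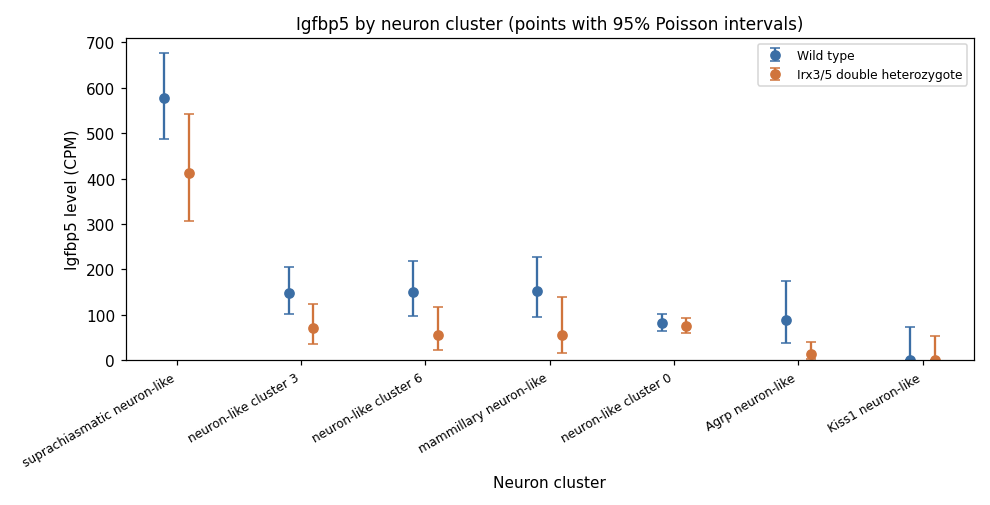
Igfbp5 level (CPM, points with 95% Poisson intervals) in each neuron cluster of wild type (blue) and double heterozygote (orange). The suprachiasmatic neuron-like cluster stands above the rest in both libraries at 576 and 412 CPM, and the libraries overlap in cluster 0.

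Of 47 further genes of the pathway, 45 were in the tables and 39 could be compared over all cells, of which 5 were past 2-fold higher and 2 lower in the double heterozygote. These 7 of 39 are near the 17.6% of all genes past 2-fold, so the total is no result about the pathway. By direction, 5 of 39 were higher against 4.21% of all genes, and 2 of 39 lower against 13.4%. This turn of direction was not tested. The higher ones with intervals that left out 1 were Ghrh, the hypothalamic releaser of growth hormone (88 and 202 UMIs, ratio 3.42, 2.65 to 4.45), the insulin receptor substrate Irs4 (134 and 194 UMIs, 2.16, 1.72 to 2.71), and the noncoding neighbour of Igf2, H19 (5 and 11 UMIs, 3.28, 1.05 to 12). H19 was highest in epithelial-like cells (27.2 and 176 CPM), on too few UMIs to be ranked, whereas Igf2 was highest in fibroblast-like cells. The pappalysin inhibitors Stc1 (8 and 13 UMIs, 2.42, 0.931 to 6.74) and Stc2 (5 and 8 UMIs, 2.39, 0.688 to 9.27) were past 2-fold with intervals that included 1. Irs1 (21 and 5 UMIs, 0.355, 0.105 to 0.967) and the kinase gene Mtor (70 and 21 UMIs, 0.447, 0.261 to 0.737) were lower. These ratios over all cells mix classes whose shares differed: neuron-like cells held 45.43% and 66.95% of all UMIs. Within neuron-like cells, its leading class in both libraries, Irs4 was at 65.25 and 96.92 CPM, a smaller difference than over all cells. How much of these ratios and direction counts came from class shares was not tested. The leading class was the same in both libraries for 13 of 34 pathway genes, close to the 39.2% of all genes. Among the proteases that cut binding proteins, Htra1 was led by tanycyte-like cells in both libraries (226 and 338 CPM) and Pappa had 1 and 7 UMIs. Socs2, a target and brake of growth hormone signalling, was led by epithelial-like cells (340 and 372 CPM), the class that also led Igfbp5.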

How the data were processed

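Drop-seq counts of 2 pooled libraries were used, 1 per genotype, so cells were not treated as replicates. The authors deposited whole-number UMI counts per gene and cell barcode for each library. Per the submitters' processing notes, STAR 2.6.0b and Seurat 3 were among the tools and mm10 (GRCm38) was the build; annotation and strand setting were not given in the sources used. The authors' deposited merged table, in natural log of scaled counts, only defined an alternative set of cells. Barcodes under 300 genes or over 20% mitochondrial UMIs were left out (395 and 316), and 19 of 3889 called by Scrublet (0.489%) were left out; at so low a rate the used cells may still hold doublets. Both libraries were clustered together with scanpy 1.11.5 and leidenalg 0.10.2 (2000 variable genes without the 10 members, 30 components, 20 neighbours, resolution 1). Classes were named from 3 or more markers, each in 10% of the cells at 2 times the median cluster, limits chosen after seeing the data. Sums of UMIs per class and library were compared. Levels carry exact Poisson intervals, ratios exact conditional binomial intervals and shares Clopper-Pearson intervals. Classes of at least 10 cells per library could lead, and classes of at least 40 were compared; a gene needed 10 UMIs, and a call was 2-fold. A count of 0 allows up to 3. Likeness used log levels with 10 CPM added and genes with at least 100 UMIs, except for pairs of members, which had no minimum. The ratios were also run on simulated counts with counting error only, the model that the intervals assume. Such counts cannot check the intervals where UMIs are concentrated in few cells. Named genes are the 10 members, some of the 3 genes most like each member with at least 100 UMIs, and the listed pathway genes past 2-fold. The plan was to name pathway genes with at least 50 UMIs, so naming those past 2-fold was a choice by outcome. Irs1, Stc1, Stc2, H19 and Pappa were below that minimum. Htra1, Pappa and Socs2 were chosen after their values were seen. Members, markers and lists were chosen with earlier results of these data known.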

Additional observations from a re-analysis of the deposited data

Results flagged for a closer look

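Igfbp5 was the only member whose ratio between the libraries lay above 1 in one class and below 1 in another with both intervals off 1. In mural-like cells the double heterozygote level was 2.15-fold (1.21 to 3.86) the wild type one, and in neuron-like cells it was 0.509-fold (0.419 to 0.617). The mural-like ratio rests on 23 and 31 UMIs. Free fibroblast RNA at the ratio of the fibroblast markers would give 12.3 and 9.77 of them, which was not tested. The interval of the ratio included 1 within the pericyte-like (0.84 to 9) and the smooth muscle-like cells (0.882 to 3.66). The neuron ratio was 0.92 (0.671 to 1.26) in cluster 0, led by Cartpt, Gal, Oxt, Sst and Pomc. The difference between the 2 ratios was not tested, since each genotype is 1 library.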

How the results depend on the processing

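Cell filters, the cells of the authors' merged table, clustering resolutions, classing each cell by its own markers, keeping the members among the variable genes, keeping called doublets, scaling, weighting and leaving out the richest cell were tried. The fibroblast-like class led 4 members in both libraries, or 5 without the richest cell, and 6 to 8 members had the same leading class in both. Weighting every cell equally put 7 members higher in the double heterozygote over all cells, against 3. With no minimum of UMIs 31 gene and class pairs were past 2-fold, and with at least 30 UMIs 2, against 6; the minimum itself sets how many pairs are compared. The log2 ratio of Igfbp5 in oligodendrocyte precursor-like cells turned to -0.67 with the mean over cells. Of 200 recomputed levels 188 stayed inside their intervals, and of 191 ratios 186. The ratio of Igfbp5 in neurons without the suprachiasmatic neuron-like cluster was chosen after seeing the data. No paired analysis was possible because each genotype has 1 library. Depth limits Igf2r, the Igfbp3 class level and every class ratio on under 30 UMIs.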
